A study of Mus musculus with 6 samples.

Results

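The genes described here are 33 p53 targets and senescence genes of the mouse, chosen by symbol: the transcription factor gene Trp53 and its partners Mdm2 and Mdm4, a set of textbook p53 targets, and the Cdkn2a and Cdkn2b genes of the INK4 and ARF locus. All 33 symbols were found among the 24421 gene rows of a table of raw read counts, and 31 passed the filter on low counts; Cdkn2a and Cdkn2b did not. RNA came from marrow of C57BL/6 mice sorted for c-Kit positive cells without lineage markers (LK), a gate that holds haematopoietic stem cells and myeloid and erythroid progenitors. Wild type animals were compared with littermates in which mutant ASXL1 was knocked in, named ASXL1-MT-KI, with 3 libraries each from animals 8 to 12 weeks old and no treatment named for either. ASXL1 encodes a partner of chromatin-modifying complexes and is often mutated in myeloid cancers and clonal haematopoiesis. The sources used here do not give the promoter or Cre that drives the knock-in, nor whether a library holds 1 animal or several; if some libraries share animals, the p-values measure only the spread between libraries.

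p53 is a transcription factor that is held at a low level by the ubiquitin ligase Mdm2 and its partner Mdm4, and is stabilised by DNA damage and other stress. It then switches on genes that halt the cell cycle, repair DNA, change metabolism or kill the cell, and Mdm2 is itself one of its targets, which closes a feedback loop. p53 is mainly controlled at the protein level, so the Trp53 transcript does not report its activity. In stem and progenitor cells of the marrow, p53 restrains self-renewal and removes damaged cells. The INK4 and ARF locus encodes cell cycle inhibitors that mark senescent cells and is a classic site of Polycomb repression.

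The libraries held 40462168 to 47579480 counts. Asxl1 was higher in all 3 ASXL1-MT-KI libraries, at 310.2 to 326.6 CPM (counts per 1e6 of the TMM-scaled library total) against 165.2 to 176.0 in wild type; counts per gene do not separate the knocked-in allele from the normal one. The 8 LK markers examined were all expressed, among them Kit at 406.4 ± 41.0 (SD, n = 3) and Mpo at 13941 ± 791 CPM in wild type. Cd34 was called lower (log2 fold change -0.31) and Myb higher (0.20), which is 25% of the 8, beside 16% of all genes. The Myb call was lost in 4 of the 14 alternatives and the Cd34 call in none. Of 10 markers of cells that the gate removes, Cd3e, Cd8a and Ms4a1 were below 0.1 CPM on average in both groups, while Itgam was present (36.6 ± 9.37 CPM in wild type); Ly6g was not analysed here. The 9 markers of the list that were measured summed to 57.7 to 66.8 CPM in wild type and 68.4 to 77.2 in ASXL1-MT-KI. Of the 6 tested, 3 had a higher and 3 a lower value in ASXL1-MT-KI. Only Cd79a was called, as lower, beside 7.69% of all genes, and that call was lost in 1 of the 14 alternatives. At an unadjusted p under 0.05, 2 were higher and 2 lower, beside 2194 and 1927 of all 13548 genes. For 9 markers of stromal, endothelial, plasma and dendritic cells the summed level was 104.1 to 119.7 CPM in wild type and 94.1 to 97.4 in ASXL1-MT-KI. Pecam1 and Sdc1, of 5 tested, were called lower, beside 7.69% of all genes (calls lost in 7 and 3 of the 14 alternatives). Col1a1, Adipoq, Lepr and Siglech were too low to test. Col1a1, a collagen gene of stromal cells, was at 2.31 CPM in wild type library 1 and at 0.066 to 0.169 in the others. The part of these cells in the results below was not tested, and in sorted bulk RNA fewer cells of a type and less RNA per cell cannot be told apart.

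The start regions of Mdm2, Ccng1, Sesn1, Gtse1, Phlda3 and Plk2 are shown to let the sequence be read beside the expression. They are not a random sample: Gtse1 was not called between genotypes, and Plk3 was called but is not shown. Windows with a half-site are over-represented among those printed, so shares are given over all members with a window. RefSeq windows on GRCm38.p6, from 250 bases before to 50 bases after a gene's start, were present for 26 of the 33 members; Xpc, Rrm2b, Perp, Ddb2, Zmat3, Trp53inp1 and Tnfrsf10b had no entry in the table. They were searched for the 10-base p53 half-site, the known consensus that a pair of p53 subunits contacts and that reads the same on both strands. A half-site was found in at least 1 window of 8 of the 26 members (30.8%), and in 9.55% of all 27025 genes of the table; the median GC content of the windows was 59% for members and 52.7% for all genes. The 8 were Aen, Ccng1, Ei24, Gtse1, Mdm2, Polk, Sesn1 and Trp53. Of the 6 members with an entry that passed the expression test, 3 held one, and none was found for Phlda3, Plk2 and Plk3. The Phlda3 window ends in gaacatgt, which matches the first 8 bases of the half-site and is cut there, so the search could not score it. Adjacent half-sites with up to 2 mismatches and both cores intact were found for 1 member, Gtse1, and for 0.189% of all genes. The windows below are written 5′ to 3′ on the gene's strand, and capitals mark a half-site, an adjacent pair or, in Plk2, the cyclic AMP response element TGACGTCA. That element reads the same on both strands and was searched after the Plk2 sequence had been seen. It was in 2 of the 26 members, Plk2 and Cdkn2b, and in 2.03% of all genes. Each match is a description of letters, not evidence of binding, and binding sites that lie in introns or further upstream are outside these windows.
Mdm2, chr10:117710709-117711008, minus strand: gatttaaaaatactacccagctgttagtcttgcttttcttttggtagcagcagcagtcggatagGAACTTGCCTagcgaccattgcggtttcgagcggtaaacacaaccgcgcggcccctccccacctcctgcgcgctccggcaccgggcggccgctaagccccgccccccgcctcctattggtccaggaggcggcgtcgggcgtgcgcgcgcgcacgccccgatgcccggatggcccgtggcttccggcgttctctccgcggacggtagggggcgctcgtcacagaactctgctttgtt
Ccng1, chr11:40755237-40755536, minus strand: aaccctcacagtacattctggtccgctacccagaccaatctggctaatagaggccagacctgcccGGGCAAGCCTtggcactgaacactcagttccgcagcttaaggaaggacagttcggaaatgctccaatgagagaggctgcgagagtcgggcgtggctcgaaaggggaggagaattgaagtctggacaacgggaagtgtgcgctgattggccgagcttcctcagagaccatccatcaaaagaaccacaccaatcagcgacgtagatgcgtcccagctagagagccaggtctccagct
Sesn1, chr10:41887189-41887488, plus strand: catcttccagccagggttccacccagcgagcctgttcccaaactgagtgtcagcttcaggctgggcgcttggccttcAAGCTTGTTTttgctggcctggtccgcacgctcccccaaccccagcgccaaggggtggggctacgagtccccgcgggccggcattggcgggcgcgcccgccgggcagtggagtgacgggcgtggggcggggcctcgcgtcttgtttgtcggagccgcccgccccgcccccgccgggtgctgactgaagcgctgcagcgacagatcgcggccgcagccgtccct
Gtse1, chr15:85859696-85859995, plus strand: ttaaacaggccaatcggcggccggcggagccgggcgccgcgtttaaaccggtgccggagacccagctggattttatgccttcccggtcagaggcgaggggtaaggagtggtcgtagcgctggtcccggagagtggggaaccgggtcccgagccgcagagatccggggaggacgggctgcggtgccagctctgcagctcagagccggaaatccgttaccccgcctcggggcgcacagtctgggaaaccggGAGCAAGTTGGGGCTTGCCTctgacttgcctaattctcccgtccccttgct
Phlda3, chr1:135765835-135766134, plus strand: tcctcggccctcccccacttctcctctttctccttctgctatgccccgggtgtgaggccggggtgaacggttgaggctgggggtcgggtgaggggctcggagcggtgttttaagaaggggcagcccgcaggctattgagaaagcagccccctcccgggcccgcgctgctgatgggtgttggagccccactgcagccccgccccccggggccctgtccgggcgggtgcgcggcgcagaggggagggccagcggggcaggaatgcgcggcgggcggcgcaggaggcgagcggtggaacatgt
Plk2, chr13:110394794-110395093, plus strand: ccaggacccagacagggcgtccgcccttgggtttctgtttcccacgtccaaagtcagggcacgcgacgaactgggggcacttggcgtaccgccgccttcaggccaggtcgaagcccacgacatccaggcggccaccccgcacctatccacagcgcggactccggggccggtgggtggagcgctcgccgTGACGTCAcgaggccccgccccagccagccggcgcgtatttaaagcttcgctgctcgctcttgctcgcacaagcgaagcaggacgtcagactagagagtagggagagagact
The half-site GAACTTGCCT of Mdm2 begins 186 bases before the listed start, GGGCAAGCCT of Ccng1 185 bases before it and AAGCTTGTTT of Sesn1 173 bases before the second of its listed starts. The adjacent pair of Gtse1, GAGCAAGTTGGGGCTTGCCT, begins 1 base before the second of its listed starts and runs over it. The window of its first listed start held no half-site.

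Of the 31 tested members, 3 rose in ASXL1-MT-KI cells (Phlda3, Zmat3 and Ccng1) and 7 fell (Mdm2, Trp53inp1, Plk2, Plk3, Sesn1, Tnfrsf10b and Perp) at an adjusted p under 0.05 (edgeR quasi-likelihood test, Benjamini-Hochberg over 13548 genes). These 10 are 32.3% of the members, beside 16% of all genes tested. The risers were 9.68% of the members and the background was 8.29%, so the share that rose was close to that of all genes. The fallers were 22.6% against 7.69%. The members and the lists below were chosen with earlier results of these data known, so their shares are descriptions. Of the 10, 6 changed by at least 1.5-fold (Phlda3, Zmat3, Plk2, Plk3, Tnfrsf10b and Perp), and 6.55% of all genes both passed the test and reached that size. The targets therefore did not move in 1 direction. The median log2 fold change of the 31 was 0.11, beside 0.00 for all genes. A positive value was found for 22 of the 31 and for 6806 of all 13548 genes. With the replicate number as a block, 8 members rose and 8 fell beside 16.7% of all genes called higher and 13.8% lower, and with total counts in place of TMM scaling 6 rose and 5 fell. The plot of fold changes by role shows the spread.

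**Figure D1:**
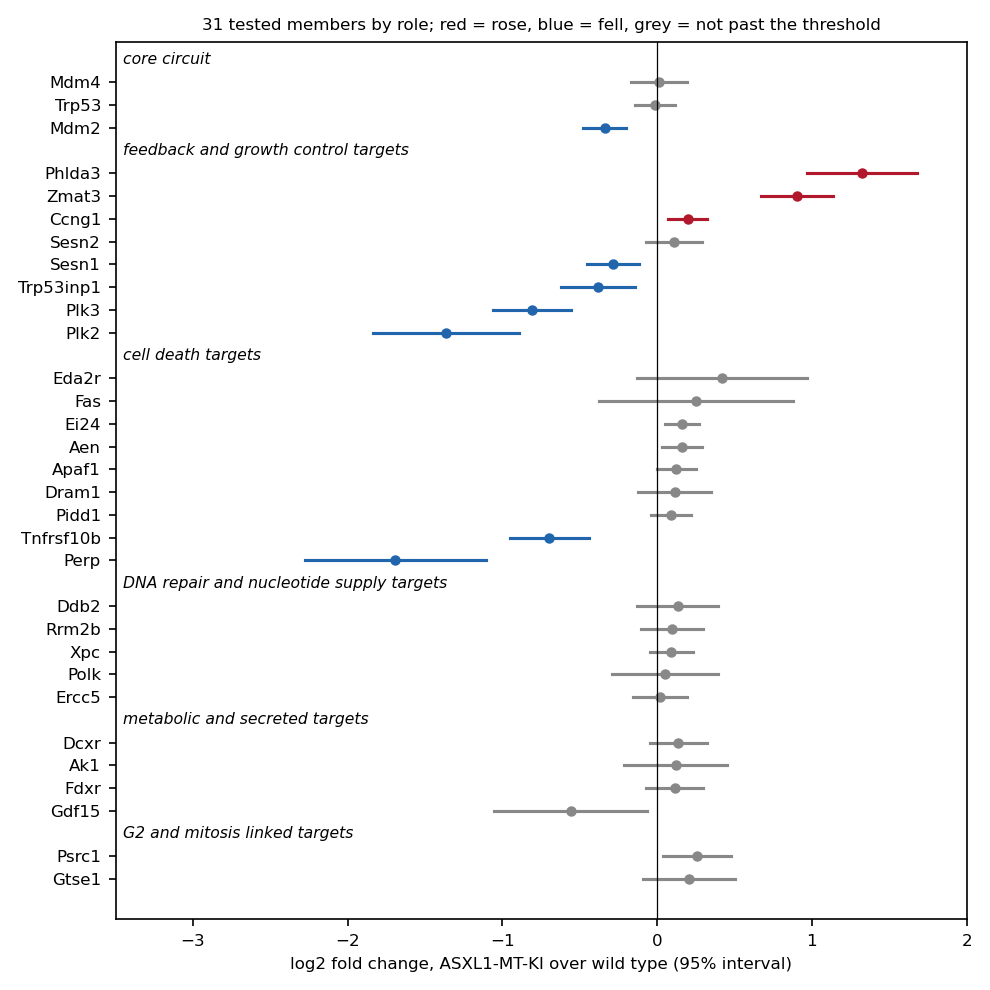
Log2 fold change (x axis, ASXL1-MT-KI over wild type) of the 31 tested members with 95% intervals from the edgeR fit, grouped by role (y axis). The 3 red genes rose and the 7 blue genes fell, from -1.69 for Perp to 1.33 for Phlda3, and the DNA repair, metabolic and G2 linked genes are grey.

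In the core circuit, Mdm2 fell while Trp53 and Mdm4 stayed within the spread of the libraries. Trp53 (chromosome 11, 69580359 to 69591873; all gene positions are on mm10) gave 245.0, 264.6 and 234.1 CPM in libraries 1 to 3 of the wild type group, against 253.8, 249.9 and 232.2 in libraries 1 to 3 of ASXL1-MT-KI. Each group had values inside the range of the other, and the log2 fold change was -0.02 with a 95% interval of -0.15 to 0.12 (adjusted p = 0.898). Mdm4, which binds p53 and blocks its activation domain, was at 199.9, 217.4 and 236.0 CPM in wild type and at 203.0, 213.2 and 243.4 in ASXL1-MT-KI. Its number 3 libraries were the highest in both groups, and the log2 fold change was 0.01 (interval -0.17 to 0.20, adjusted p = 0.934).

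Mdm2 (chromosome 10, 117688875 to 117710758), the main ubiquitin ligase for p53, stood at 111.3, 97.5 and 108.7 CPM in wild type and at 81.2, 82.5 and 87.5 in ASXL1-MT-KI. Every ASXL1-MT-KI library lay below every wild type library, as for 17.2% of all genes tested. The fall was 1.26-fold (log2 fold change -0.34 ± 0.062, SE; adjusted p = 0.00621). A ratio of counts within a library does not depend on scaling between libraries. Mdm2 had 55.7, 44.9 and 46.1 counts per 100 of Mdm4 in wild type and 40.03, 38.7 and 35.9 in ASXL1-MT-KI, with no overlap. Per 100 counts of Trp53 it had 45.5, 36.9 and 46.4 in wild type and 32.01, 33.01 and 37.7 in ASXL1-MT-KI, where the groups overlapped at 1 library. Of 4 such ratios computed for members, none passed an exact two-sided permutation test, which with 3 libraries a group cannot go below p = 0.1; p was 0.1 for Mdm2 to Mdm4 and 0.2 for Mdm2 to Trp53 (0.133 and 0.2 adjusted over the 4).

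Targets that feed back on p53 or restrain growth had the most calls of any role, with 3 rises and 4 falls among 8, beside 8.29% of all genes higher and 7.69% lower. Phlda3 (chromosome 1, 135766119 to 135769136) encodes a pleckstrin homology domain protein that competes with AKT for membrane lipids and so dampens AKT. Its level was 1.85, 2.44 and 2.22 CPM in wild type and 6.00, 4.76 and 5.57 in ASXL1-MT-KI. The lowest ASXL1-MT-KI library was well above the highest wild type one, a rise of 2.51-fold (log2 fold change 1.33 ± 0.16, adjusted p = 7.6e-04). Zmat3 (chromosome 3, 32334792 to 32366014), an RNA-binding zinc finger protein that regulates splicing and mRNA stability, was at 6.27, 7.02 and 5.74 CPM in wild type and at 11.6, 11.5 and 12.5 in ASXL1-MT-KI. It rose 1.87-fold (log2 fold change 0.90 ± 0.10, adjusted p = 6.2e-04), with libraries of each group close together. Ccng1, which encodes the atypical cyclin G1 that recruits a phosphatase to Mdm2, rose by much less. It was at 89.2, 91.7 and 81.0 CPM in wild type and at 99.3, 101.0 and 100.3 in ASXL1-MT-KI (log2 fold change 0.20 ± 0.056, adjusted p = 0.0415). That call was lost without wild type replicates 1 or 3 (adjusted p = 0.0939 and 0.0728), without ASXL1-MT-KI replicates 1, 2 or 3 (0.114, 0.162 and 0.101) and without number 3 of both groups (0.0758).

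The polo-like kinase genes Plk2 and Plk3 fell. Both encode stress-responsive kinases that are also known as genes induced early by serum and growth factors. Plk2 (chromosome 13, 110395046 to 110400844) was at 55.5, 46.7 and 39.0 CPM in wild type and at 21.6, 19.5 and 13.7 in ASXL1-MT-KI. In both groups library 3 was the lowest. The groups did not overlap, and 17.2% of all genes tested had no overlap with ASXL1-MT-KI lower. The fall was 2.57-fold (log2 fold change -1.36 ± 0.20, adjusted p = 0.00614). Between libraries of the same number the difference in log2(CPM + 0.5) was -1.34, -1.24 and -1.48, a narrower range than the levels themselves. Plk3 (chromosome 4, 117128655 to 117133963) was at 62.1, 59.3 and 57.1 CPM in wild type and at 31.4, 29.8 and 40.9 in ASXL1-MT-KI, with library 3 of ASXL1-MT-KI apart from the other two. It fell 1.75-fold (log2 fold change -0.81 ± 0.11, adjusted p = 0.00217). In the annotation 84 of its exon bases, 3.32%, are shared with Tctex1d4 on the opposite strand, a gene with 85 counts over all 6 libraries. Per 100 counts of Trp53, Plk2 had 22.7, 17.6 and 16.6 in wild type and 8.50, 7.81 and 5.89 in ASXL1-MT-KI, and Phlda3 had 0.756, 0.923 and 0.947 against 2.37, 1.90 and 2.40; for both, p = 0.1 in the exact permutation test, the smallest it can give.

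Sesn1 and Trp53inp1 fell by smaller amounts. Sesn1 encodes sestrin 1, which restrains mTORC1 signalling and oxidative damage. It was at 46.5, 43.2 and 51.8 CPM in wild type and at 39.1, 36.9 and 39.99 in ASXL1-MT-KI (log2 fold change -0.29 ± 0.075, adjusted p = 0.0300). The call was lost without wild type replicates 1 or 3 (adjusted p = 0.0866 and 0.0548), without ASXL1-MT-KI replicates 1 or 2 (0.0655 and 0.104) and with total counts (0.0738). Trp53inp1, a stress protein that promotes autophagy and p53 phosphorylation, was at 14.9, 15.3 and 18.5 CPM in wild type and at 11.8, 11.8 and 13.7 in ASXL1-MT-KI. Its log2 fold change was -0.38 ± 0.11 (adjusted p = 0.0378), and the call was lost with total counts (0.0775), without any 1 wild type library (0.0597, 0.0509 and 0.0728 without replicates 1 to 3) and without ASXL1-MT-KI replicates 1 or 2 (0.110 and 0.121). Sesn2, the paralog of Sesn1, did not pass: its means were 11.4 ± 0.558 and 12.3 ± 0.444 CPM (log2 fold change 0.11, interval -0.08 to 0.29, adjusted p = 0.416).

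**Figure D2:**
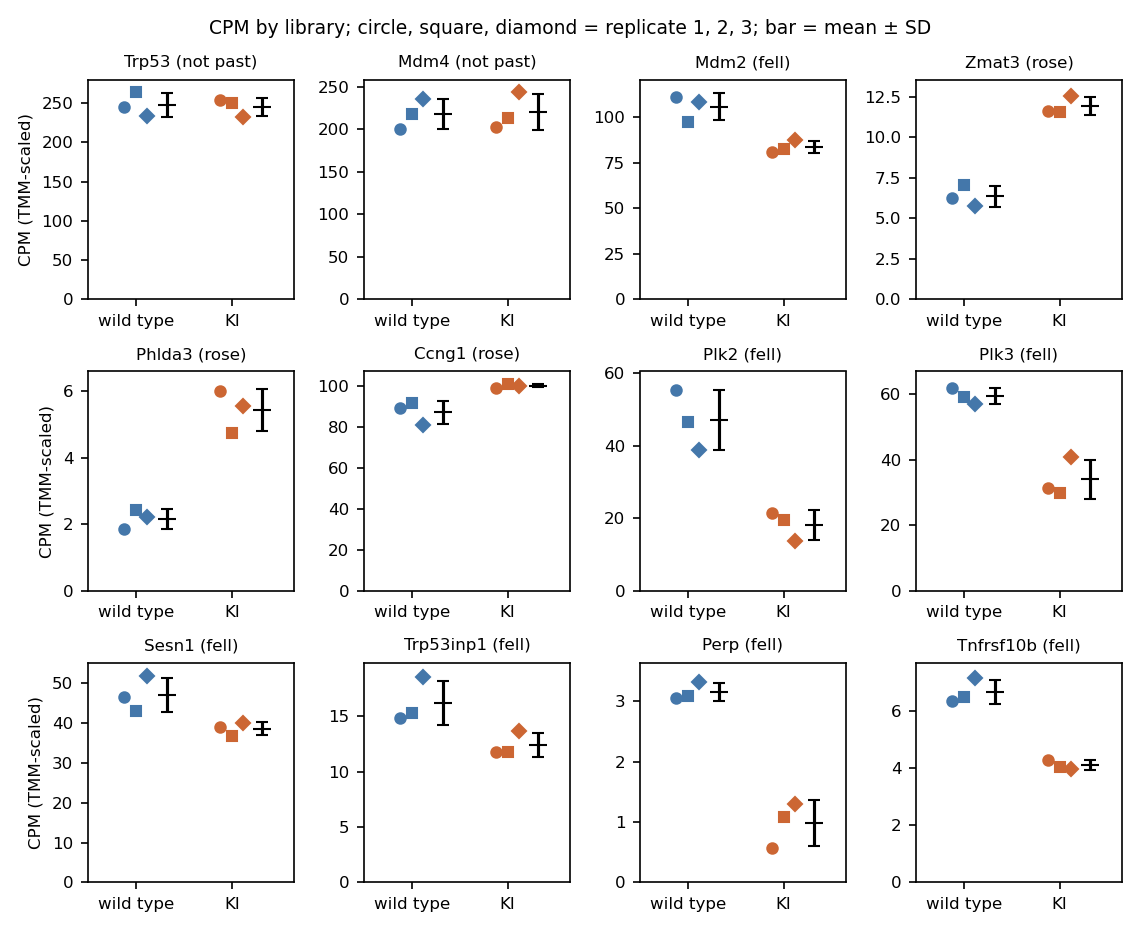
TMM-scaled CPM (y axis, from 0) of 12 members in each library (x axis, genotype; KI is ASXL1-MT-KI), with circles, squares and diamonds for replicates 1, 2 and 3 and the mean ± SD beside them. The groups do not overlap for the 10 genes that passed the test, while those of Trp53 and Mdm4 do. Of all genes tested, 35.2% had no overlap in either direction.

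Among 9 targets with a role in cell death, Perp and Tnfrsf10b fell and none rose by edgeR. At an unadjusted p under 0.05, 2 were higher and 2 lower, beside 2194 and 1927 of all 13548 genes. The 2 calls past the threshold are 22.2% of the 9, not far from the 16% of all genes. Perp (chromosome 10, 18845020 to 18857073), a membrane protein of desmosomes that can promote apoptosis, was at 3.05, 3.10 and 3.33 CPM in wild type and at 0.563, 1.08 and 1.30 in ASXL1-MT-KI. It rested on 140, 142 and 135 counts in wild type and on 27, 49 and 54 in ASXL1-MT-KI, and ASXL1-MT-KI library 1 was the lowest. This was the largest fall among the members, 3.23-fold (log2 fold change -1.69 ± 0.26, adjusted p = 0.00269). Tnfrsf10b (chromosome 14, 69767472 to 69784411), the mouse TRAIL receptor, fell 1.62-fold. It was at 6.34, 6.48 and 7.14 CPM in wild type and at 4.29, 4.03 and 3.98 in ASXL1-MT-KI (log2 fold change -0.70 ± 0.11, adjusted p = 0.00361), with little spread inside either group.

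The other 7 death-related members did not pass, all with a positive log2 fold change, as for 6806 of all 13548 genes tested. Ei24, an endoplasmic reticulum protein, and Aen, a nuclease that digests DNA in apoptosis, were the nearest to the threshold. Ei24 was at 65.1, 62.6 and 61.3 CPM in wild type and at 70.7, 69.3 and 71.5 in ASXL1-MT-KI (log2 fold change 0.16, adjusted p = 0.0516), and Aen at 48.8, 55.4 and 51.4 against 57.6, 58.0 and 58.5 (0.16, adjusted p = 0.0924). Neither gene's groups overlapped, and 18% of all genes tested had no overlap with ASXL1-MT-KI higher. Of the Ei24 exon bases, 6.66% are shared with an antisense gene. With the replicate block Ei24 (adjusted p = 0.0147), Aen (0.0243) and Apaf1 (0.0292) were called higher; Ei24 also passed with total counts (0.0144) and with the stricter CPM filter (0.0461), and Aen without wild type replicate 2 (0.0466) and with total counts (0.0373). Apaf1, the scaffold of the apoptosome, had means of 114.3 ± 5.04 and 124.6 ± 6.89 CPM (log2 fold change 0.12, adjusted p = 0.178). Pidd1, which activates caspase-2, and Dram1, a lysosomal regulator of autophagy, had log2 fold changes of 0.09 and 0.11 (adjusted p = 0.348 and 0.524). The receptor genes Fas (0.583 ± 0.161 and 0.696 ± 0.097 CPM) and Eda2r (0.580 ± 0.064 and 0.775 ± 0.123 CPM) were near the lower limit of what could be tested, at 17 to 44 counts per library, with wide intervals of the log2 fold change, -0.38 to 0.88 and -0.13 to 0.97.

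None of the 5 DNA repair and nucleotide supply members passed in either direction by edgeR, beside 16% of all genes tested. With so few genes, a count of 0 is not set apart from that share. The count was also 0 at an unadjusted p under 0.05, where 2194 of all 13548 genes were higher and 1927 lower. It was 0 in each of the 14 alternatives as well. Xpc and Ddb2 recognise ultraviolet damage for nucleotide excision repair, and Ercc5 cuts the damaged strand. Xpc had means of 86.5 ± 7.18 and 92.2 ± 1.004 CPM (log2 fold change 0.09, interval -0.05 to 0.23), and Ercc5 of 19.6 ± 0.951 and 19.8 ± 1.33 (0.02, -0.16 to 0.19). Ddb2 was at 7.14 ± 0.837 and 7.83 ± 0.544 CPM (0.13, -0.13 to 0.40); 23.8% of its exon bases overlap Acp2 on the opposite strand, a gene with 6867 counts, so without strand its level is uncertain. Rrm2b, the p53-inducible subunit of ribonucleotide reductase, was at 10.95 ± 0.529 and 11.7 ± 0.760 CPM (0.10, -0.10 to 0.29), and 8.04% of its exon bases overlap an antisense gene. Polk, a translesion polymerase, was at 10.2 ± 1.54 and 10.5 ± 1.96 CPM (0.05, -0.29 to 0.40), with library 3 the highest in both groups. The intervals of Xpc, Ercc5 and Rrm2b thus leave out changes of the size measured for Mdm2, in either direction. Those of Ddb2 and Polk include a rise of that size.

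Of the 4 metabolic and secreted members, none passed, beside 16% of all genes tested. Gdf15, which encodes a stress-induced cytokine, passed only under some choices. It was at 3.46, 3.38 and 2.07 CPM in wild type and at 2.33, 1.77 and 1.95 in ASXL1-MT-KI, so that wild type library 3 lay among the ASXL1-MT-KI values. Between same-numbered libraries the difference in log2(CPM + 0.5) was -0.48, -0.77 and -0.07. The log2 fold change was -0.56 ± 0.22 (adjusted p = 0.121). Leaving out wild type replicate 3 gave -0.76 (adjusted p = 0.0161), leaving out number 3 of both groups gave -0.73 (0.0275) and the replicate block gave -0.55 (0.0284). Dcxr, a carbonyl reductase, Fdxr, which supplies electrons to mitochondrial cytochromes, and Ak1, an adenylate kinase, had log2 fold changes of 0.14, 0.11 and 0.12, none past the threshold (adjusted p = 0.294, 0.394 and 0.635).

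Gtse1 and Psrc1 encode microtubule-binding proteins of G2 and mitosis, and Gtse1 also moves p53 out of the nucleus. Gtse1 was at 42.7, 49.4 and 35.2 CPM in wild type and at 53.2, 50.8 and 42.7 in ASXL1-MT-KI (log2 fold change 0.21, adjusted p = 0.332). Psrc1 was at 19.2, 18.5 and 15.5 CPM in wild type and at 22.7, 21.6 and 19.5 in ASXL1-MT-KI (0.26, adjusted p = 0.106). Library 3 was the lowest of its group for both genes. The replicate block called both higher (adjusted p = 0.0154 and 0.00935), and total counts called Psrc1 (0.0490). A list of 24 other G2 and M phase genes moved in the same pattern: averaged over both groups, all 24 were lower in library 3 than in the mean of libraries 1 and 2 (median -0.25 on the log2 scale), where 48.4% of all genes were lower by the same measure. Their summed level was 3617 to 4412 CPM in wild type and 3973 to 4527 in ASXL1-MT-KI. None of the 24 was called by edgeR, beside 16% of all genes, nor by DESeq2 and limma-voom. At an unadjusted p under 0.05 in edgeR, 1 was higher and 0 lower, beside 2194 and 1927 of all 13548 genes. The log2 fold change was positive for 23 of the 24 and negative for 1 (median 0.09). It was positive for 6806 of all 13548 genes. With the block 10 were called higher, beside 16.7% of all genes. Without wild type replicate 2, and without number 3 of both groups, 1 each was called higher. The part of cell cycle stage in the values of Gtse1 and Psrc1 was not tested.

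**Figure D3:**
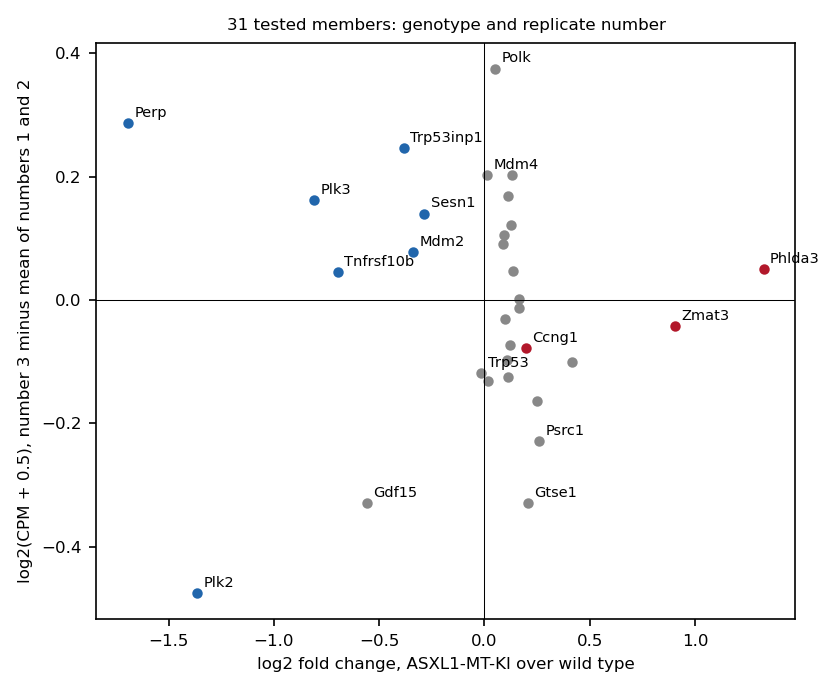
Each point is 1 of the 31 tested members, with its log2 fold change between genotypes (x axis) and the difference between number 3 and the mean of numbers 1 and 2, averaged over both groups (y axis, log2(CPM + 0.5)). Plk2 (-0.48), Gtse1 (-0.33), Gdf15 (-0.33) and Psrc1 (-0.23) were lower in the number 3 libraries and Polk (0.38) and Perp (0.29) higher.

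Cdkn2a and Cdkn2b, the senescence genes proper, were at or near 0 in both genotypes. Cdkn2a (chromosome 4, 89274471 to 89294653) encodes p16INK4a and p19ARF, which counts per gene do not separate. It had 0, 2 and 0 counts in wild type and 0, 0 and 0 in ASXL1-MT-KI, which allows up to 0.0223 CPM over the ASXL1-MT-KI group (3 counts, counting error only). Cdkn2b (chromosome 4, 89306299 to 89311039), which encodes p15INK4b, had 3, 0 and 0 counts in wild type and 3, 3 and 4 in ASXL1-MT-KI. The ratio of summed counts, 10 against 3, was 3.28 with an exact 95% counting interval of 0.843 to 18.5, so a difference was not detectable at this depth.

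In wild type cells the members covered a wide range of levels per length of annotated exon. Trp53 was the highest at 61.3 ± 3.82 CPM per kilobase, followed by Ccng1 (24.9 ± 1.60) and Plk3 (23.5 ± 0.987), which did not differ beyond their spread, and Mdm2 (20.8 ± 1.44). Xpc, Gtse1 and Mdm4 followed at 15.8 ± 1.31, 15.5 ± 2.59 and 14.7 ± 1.22, also within their spread. The 2 strongest risers started low, with Phlda3 at 1.39 ± 0.191 and Zmat3 at 0.555 ± 0.056 CPM per kilobase, and Fas and Eda2r were the lowest tested members at 0.283 ± 0.078 and 0.0985 ± 0.011. In ASXL1-MT-KI cells Plk3 stood at 13.4 ± 2.36 and Mdm2 at 16.5 ± 0.646 CPM per kilobase, Phlda3 at 3.49 ± 0.406 and Plk2 at 4.06 ± 0.913, from 10.5 ± 1.85 in wild type.

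Further p53 targets outside the 33 showed more falls than rises. Of 33 tested genes of a list of 35, 11 fell and 3 rose (median log2 fold change -0.12, with 16% of all genes called). Cdkn1a, which encodes the cell cycle inhibitor p21 and is the best-known p53 target, was at 196.6, 184.8 and 169.5 CPM in wild type and at 106.7, 71.2 and 85.2 in ASXL1-MT-KI. It fell by 1.07 on the log2 scale (SE 0.14, adjusted p = 0.00437), a call lost without number 3 of both groups (adjusted p = 0.117). Bbc3, the gene of the death activator PUMA, fell by 0.71 (SE 0.091, adjusted p = 0.0011) and Ccng2, a relative of Ccng1, by 0.48 (SE 0.060, adjusted p = 0.00101), while Polh, a translesion polymerase, rose by 0.45 (SE 0.078, adjusted p = 0.00474). The other rises, named after their values were seen, were Cd82, a membrane tetraspanin gene, by 0.40 and Tigar, a regulator of glycolysis, by 0.28. Cd82 lost its call in 4 of the 14 alternatives (with no filter, without ASXL1-MT-KI replicates 1 or 2 and without wild type replicate 1; adjusted p up to 0.134) and Tigar in 5 (without wild type replicates 1 or 2 and without any 1 ASXL1-MT-KI library; up to 0.124). Bax was at 60.3 ± 3.58 and 57.9 ± 3.09 CPM (adjusted p = 0.578), and Btg2 at 265.1, 229.0 and 168.2 CPM in wild type and 185.1, 177.5 and 175.1 in ASXL1-MT-KI (adjusted p = 0.264; 0.00105 without wild type replicate 3 and 0.00296 without number 3 of both groups). The falls in the list numbered 7 without ASXL1-MT-KI replicates 1 or 2 or wild type replicate 2 and 6 without wild type replicate 1, and the rises 1 without ASXL1-MT-KI replicates 1 or 2 or wild type replicate 1 and 5 with the block or without number 3 of both groups.

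Genes that act on p53 from above were called at about the background share, 4 lower and 1 higher of 31 tested (median log2 fold change -0.08). The damage kinases Atm, Atr, Chek1 and Chek2, read for their role and outside the rule for naming genes, did not pass (adjusted p = 0.5002, 0.924, 0.833 and 0.0595); Chek2 was called higher with the block (0.00107), DESeq2 (0.0262), total counts (0.0449), no filter (0.0371) and without wild type replicate 2 (0.0437). Crebbp, a histone acetyltransferase that acetylates p53, fell from 118.3 ± 6.21 to 92.4 ± 4.15 CPM (adjusted p = 0.00328), and Trp53bp2, which encodes a p53-binding stimulator of apoptosis, from 33.7 ± 1.13 to 26.5 ± 0.820 CPM (adjusted p = 0.0055). The other falls were Hipk1, a kinase gene, by 0.19 and Ppp1r13b, a relative of Trp53bp2, by 0.25 on the log2 scale, and the rise was Trp53rka, a p53 kinase gene, by 0.29. Ppp1r13b was named outside the rule, after its values were seen. Hipk1 lost its call in 3 alternatives (total counts, without ASXL1-MT-KI replicates 1 or 2; adjusted p up to 0.0672), Ppp1r13b in 7 (these, the stricter CPM filter and without any 1 wild type library; up to 0.162) and Trp53rka in 6 (without wild type replicates 1 or 3, any 1 ASXL1-MT-KI library or number 3 of both groups; up to 0.163). The p53 relatives Trp63 and Trp73 were at 0 or near it in all libraries. The falls numbered 2 with total counts or without ASXL1-MT-KI replicates 1 or 2, and 10 with the block, where 3 rose. Rises numbered 2 under DESeq2, total counts, no filter or the loss of wild type replicate 2, and 0 without wild type replicates 1 or 3, without any 1 ASXL1-MT-KI library and without number 3 of both groups.

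Regulators of the INK4 and ARF locus and genes of the senescent secretory phenotype were also read. Of 18 locus regulators 3 fell and 1 rose (median log2 fold change -0.06); these 22.2% are not far from the 16% of all genes. Kdm6b, which removes histone H3 methylation laid down by Polycomb and is known to act at this locus, had the lowest p and fell by 1.004 (SE 0.059, adjusted p = 2.1e-05), and Bmi1, a Polycomb subunit that represses it, fell from 70.9 ± 3.13 to 54.5 ± 1.003 CPM (adjusted p = 0.0017). Id1, a repressor of Cdkn2a transcription, fell by 0.83 and Cbx7, a Polycomb reader, rose by 0.33. The Id1 call was lost in 6 alternatives, with no filter (adjusted p = 0.0705), without wild type replicates 1 or 2 (0.102 and 0.0900) and without ASXL1-MT-KI replicates 1, 2 or 3 (0.0917, 0.0697 and 0.0852). There was no rise without wild type replicates 1 or 2 and without any 1 ASXL1-MT-KI library, and there were 3 with the block and 2 with total counts. Of 23 tested senescence and secretory genes 10 fell and none rose (edgeR, and 0 at an unadjusted p under 0.05, DESeq2 and limma-voom; 1 rose with the block, without wild type replicate 3 and without number 3 of both groups). The falls were 43.5% of the list, beside 7.69% of all genes, and the median was -0.39. This list too was chosen with earlier results of these data known. The chemokine gene Cxcl2 fell by 1.25 (SE 0.13), the urokinase receptor gene Plaur by 1.42 (SE 0.14), the chromatin protein gene Hmga2 by 1.34 (SE 0.15) and Vegfa by 0.91 (SE 0.11) on the log2 scale, with adjusted p from 4.3e-04 to 0.00125. Many of these genes are also inflammatory genes, and the list does not tell senescence from inflammation. It also pools secreted factors with cell cycle and chromatin genes, so its share and median do not measure senescence.

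**Figure D4:**
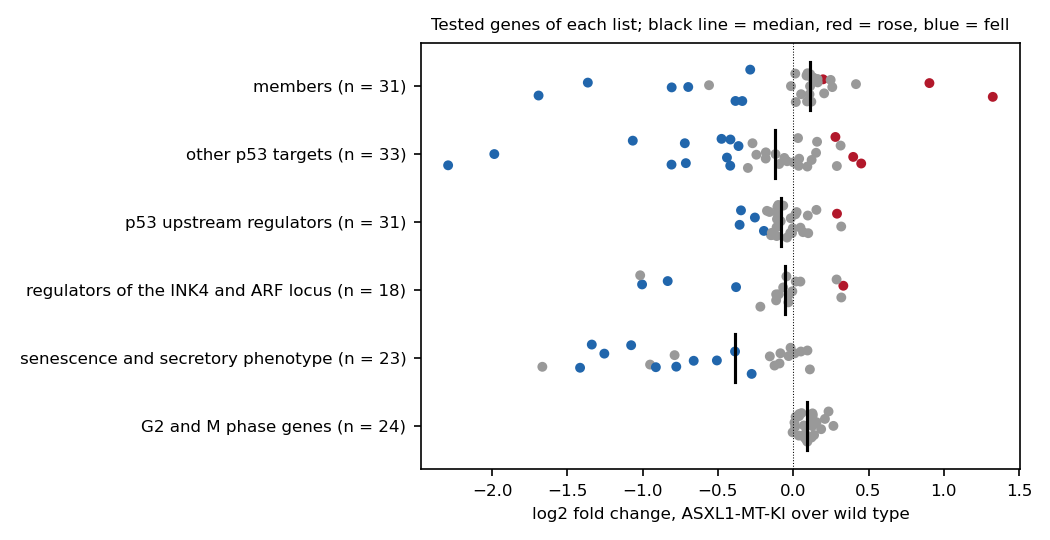
Log2 fold change (x axis, ASXL1-MT-KI over wild type) of every tested gene in the 33 members and 5 further lists (y axis, with the number tested), with black lines for medians, red for genes that rose and blue for genes that fell. Members lie on both sides of 0 with a median of 0.11, and the senescence and secretory genes have the lowest median, -0.39.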

How the data were processed

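The 6 RNA-seq libraries, 3 per genotype, used 200 ng of LK cell RNA each, a kit without strand marking and 124 bp paired-end reads, per the labels' protocols. HISAT2 2.0.4 and mm10 are named in the submitters' processing notes. Which tool and annotation gave the counts, and how shared reads were treated, is not given in the sources used here. Raw counts per gene symbol, not normalized, are what the authors deposited, in 24421 rows. Column names carry genotype and number and were matched to sample titles.

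The main test was edgeR 4.0.16 in R 4.3.3: filterByExpr (minimum count 10), TMM factors (0.972 to 1.03), the quasi-likelihood test (robust) on genotype alone, and p-values adjusted by Benjamini-Hochberg over all 13548 tested genes, with a threshold of 0.05. SE is the absolute log2 fold change over the root of F. Coordinates, exon lengths and overlaps are from GENCODE M21 (GRCm38, the assembly mm10 names). The members and lists were chosen with earlier results of these data known, so the counts are descriptions. The text names all members and, of each other list, at most 4 genes by lowest p past the threshold, plus Cdkn1a, Bax, Bbc3 and Btg2; markers, Atm, Atr, Chek1 and Chek2 are named for their role, and Cd82, Tigar and Ppp1r13b were named after their values were seen. Across genes, deviations of same-numbered libraries from their group means correlated at 0.307, 0.217 and 0.472, all above 0.1. Wild type 2 with ASXL1-MT-KI 1, unlike in number, also passed at 0.179, and the other unlike pairs lay between -0.380 and -0.0022. The labels name no pairing, so whether the numbers pair the libraries is not settled. Counts, SE, intervals and adjusted p given without a setting are from the fit on genotype alone. Blocked values stand beside them where they change a call. The scripts were tested on simulated data. The level of 1 lineage marker is not reported here on its own. Alternatives were the block, DESeq2 size factors, total counts, DESeq2 1.42.0, limma-voom (limma 3.58.1), 2 other filters, each library left out and number 3 of both groups left out. Figures used matplotlib 3.10.9.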

Additional observations from a re-analysis of the deposited data

How the results depend on the processing

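Over 14 alternatives, 7 of the 10 called members (Mdm2, Phlda3, Zmat3, Plk2, Plk3, Tnfrsf10b and Perp) were called in every one, Ccng1, Sesn1 and Trp53inp1 lost the call in some, and no called member changed direction. Of the 21 tested members that did not pass, 6 passed in at least 1 alternative and 15 in none. With the replicate block 8 members rose and 8 fell, and 2256 genes rose and 1876 fell in all against 1123 and 1042; the block changed no other call of a member than those given above. With total counts 6 members rose and 5 fell, beside 1562 and 767 genes. Leaving out 1 library gave 2 to 4 risen and 5 to 7 fallen members, and 534 to 1216 risen and 587 to 1041 fallen genes, the lowest for rises without wild type replicate 1 and for falls without ASXL1-MT-KI replicate 2. The median log2 fold change of the members was lowest, 0.08, without ASXL1-MT-KI replicate 3 and highest, 0.16, with total counts. The causes of these shifts were not tested. Depth limits Cdkn2a and Cdkn2b, with 2 and 13 counts in all, and Fas and Eda2r. Transcript counts do not measure p53 protein or its activity.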
